A study of Rattus norvegicus with 2 samples.

Results

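Nuclei that carried Meis1 and Pbx3 transcripts together with the GABA-synthesis genes Gad1 or Gad2 were examined in rat orbitofrontal cortex. They were selected on raw UMI counts (unique molecular identifiers, 1 per captured RNA molecule). A nucleus was chosen by at least 500 detected genes, at least 1 UMI of Gad1 or Gad2, no UMI of Slc17a7 (the vesicular glutamate transporter of cortical excitatory neurons), at least 1 UMI each of Meis1 and Pbx3, at most 1 UMI each of Btbd11, Unc13c and Adarb2, and no UMI of Sst (somatostatin). This rule found 54 of 12512 nuclei, of which 48 came from the methamphetamine (METH) library and 6 from the saline library. The values of these 9 genes chose the nuclei, so they are given below as a description only.

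Meis1 and Pbx3 encode TALE-class homeobox transcription factors, which bind DNA as partners of each other and of HOX and other homeodomain proteins. Meis and Pbx genes are known from the lateral ganglionic eminence, the embryonic zone that makes striatal projection neurons and the granule and periglomerular interneurons of the olfactory bulb. Cortical interneurons come mostly from the medial ganglionic eminence (MGE), which is marked by Lhx6 and Sox6, and from the caudal ganglionic eminence (CGE), which is marked by Adarb2, Prox1 and Vip.

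The METH group consisted of male Sprague-Dawley rats, 8 weeks old, given 1 mg/kg METH, a psychostimulant that releases dopamine, by intraperitoneal injection for 7 days as a model of sensitization to the drug. The saline group consisted of rats of the same strain, sex and age given saline over the same time. Orbitofrontal tissue came from 4 animals per group and gave 1 single-nucleus library per group. The labels do not tell how tissue from the 4 animals was joined into 1 library, and name no allele beyond the strain. All animals of both groups were anesthetized with pentobarbital before the brain was taken. The METH library held 5543 barcodes and 44969322 UMIs, and the saline library 6969 barcodes and 42221257 UMIs. Because each group is a single library, variation between animals was not measured and no test was run. All intervals are 95% intervals and cover counting error only. The treatment and the library cannot be told apart, nor can more nuclei of a type and more RNA per nucleus in a summed level.

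Some chosen nuclei went against the label and are set out first. When all nuclei of both libraries were clustered together, 41 of the 48 METH nuclei fell in cluster 15, which was led by Ndst4, Frmd7, Ebf3, Tfap2d and Cpa6 and is called by its number here. The other 7 METH nuclei fell in clusters led by glial genes: 3 in cluster 1 and 1 in cluster 8, both led by oligodendrocyte genes such as Mog and Mobp, and 1 in cluster 7 and 2 in cluster 22, both led by astrocyte genes. None of the 6 saline nuclei fell in cluster 15. Of these, 3 were in cluster 10, led by genes of immune cells such as Bin2 and Irf8, and 1 each in cluster 1, cluster 7 and cluster 3, the last led by Pvalb and Tac1. Cdhr1, a cadherin-related gene of olfactory bulb mitral and tufted cells that was given as a marker of these nuclei, was nearly absent, with 2 UMIs in 2 of the 48 METH nuclei and 0 UMIs in the 6 saline nuclei. The glial lists, Sox6, Alk, Samd5 and Gng7, for which the 7 METH nuclei outside cluster 15 held many of the UMIs, are also given without these nuclei.

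The chosen nuclei were 0.874% of the METH nuclei with at least 500 genes (48 of 5490, exact Clopper-Pearson interval 0.645 to 1.16%). They were 0.0867% of the saline nuclei (6 of 6917, 0.0318 to 0.189%). The ratio of the shares, METH over saline, was 10.1 (4.31 to 28.8), or 3.33 on the log2 scale (2.11 to 4.85). The METH excess was known when these nuclei were picked, so the ratio is a description only. Among GABAergic nuclei, meaning nuclei with Gad1 or Gad2 and no Slc17a7, they were 3.40% in the METH library (48 of 1413) and 0.525% in the saline library (6 of 1142), a log2 ratio of 2.69. GABAergic nuclei themselves were 1413 of 5490 nuclei in the METH library and 1142 of 6917 in the saline library. Within cluster 15 the METH library had 41 chosen nuclei and the saline library 0, which allows a saline share of up to 0.0434% (3 nuclei of the total) and makes the METH share at least 17.2-fold higher at that floor. The exact interval is wider, with a saline share of up to 0.0533% and a ratio of 13.4 at its lower bound. The libraries shared 9 barcodes, and none of these was a chosen nucleus in both; 1 barcode of a chosen METH nucleus also occurred in the saline library.

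**Figure D1:**
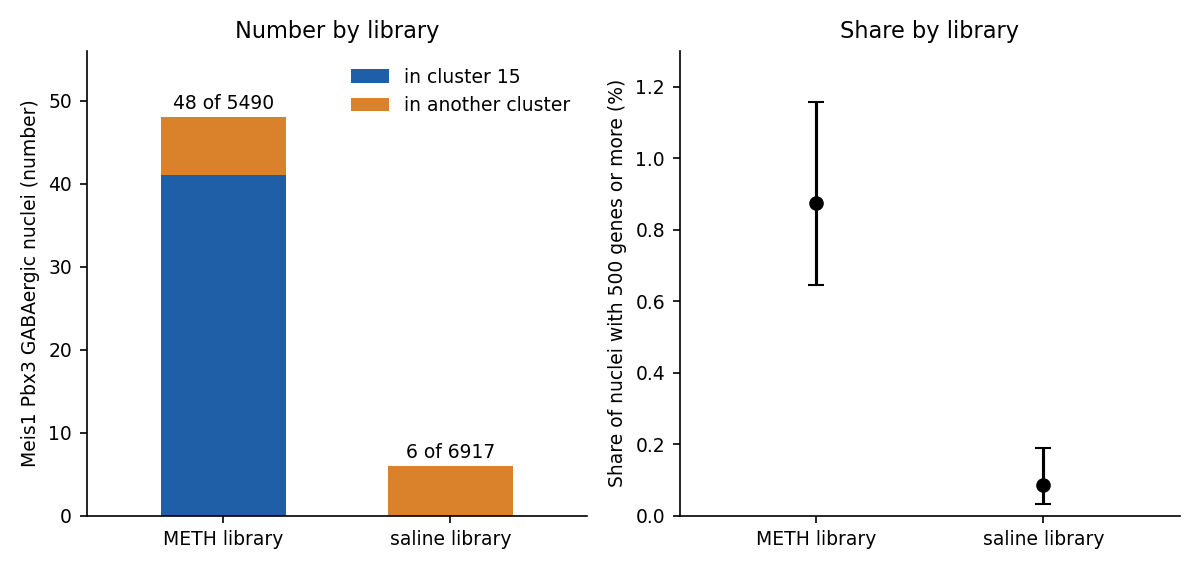
Meis1 Pbx3 GABAergic nuclei by library. The left panel counts the chosen nuclei, split by whether they fell in cluster 15 (blue) or in another cluster (orange), and the right panel gives their share of all nuclei with at least 500 genes in percent, with exact 95% Clopper-Pearson intervals. The METH library had 41 in cluster 15 and 7 elsewhere, and the 6 saline nuclei were all elsewhere.

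The numbers left at each later step of the rule also differed between the libraries. In the METH library 147 of the 1413 GABAergic nuclei had Meis1, and 109 of these also had Pbx3. In the saline library 60 of 1142 had Meis1, and 17 of these also had Pbx3. Just inside the threshold, 14 of the 48 METH nuclei had 1 Meis1 UMI and 6 had 1 Pbx3 UMI. Just outside it, 77 METH nuclei missed the rule on Meis1 alone, 21 of them in cluster 15, and 38 missed it on Adarb2 alone, 23 of them in cluster 15. At least 2 UMIs of both Meis1 and Pbx3 were present in 31 of the 48 METH nuclei and in 0 of the 6 saline nuclei. Meis1 ranged from 1 to 10 UMIs per nucleus in the METH nuclei, with a median of 2, and from 1 to 2 in the saline nuclei. Pbx3 ranged from 1 to 20 UMIs in the METH nuclei, with a median of 5, and from 1 to 2 in the saline nuclei. Nuclei with both genes were found in other classes too: 67 of the 172 METH nuclei in cluster 10 had at least 1 UMI of each, at a median of 16724 UMIs per nucleus in that cluster.

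The chosen METH nuclei were shallower than the other GABAergic nuclei of their library, with a median of 3368.5 UMIs (1646 to 7949) and 1804 genes, against 5752 UMIs and 2805 genes. The upper limits of the rule were set on the chosen nuclei only. Among the other GABAergic nuclei that also met these limits the median was 3444 UMIs, close to that of the chosen nuclei. After each nucleus was thinned to 2000 UMIs the median was 1240 genes in the 47 chosen nuclei deep enough and 1321 in 1286 other GABAergic nuclei. Doublets were called with Scrublet in 2 of the 48 METH nuclei and 0 of the 41 in cluster 15, and in 1 of the 6 saline nuclei; these nuclei were kept. Since the 6 saline nuclei are too few and of other clusters, the chosen nuclei were described against the other 1365 GABAergic nuclei of the METH library, so that the library was the same on both sides. UMIs were summed over each set (188871 in the chosen nuclei, 8598709 in the others) and scaled to CPM, which puts the UMIs of a gene over all UMIs of its set on a common scale, where 1 UMI in the chosen nuclei is 5.29 CPM. A gene was measured with at least 30 UMIs over both sums and 20 CPM in either, and was called higher or lower at a ratio of 2-fold or more.

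Of 8138 measured genes, 751 were higher in the chosen nuclei, or 9.23%, and 1262 were lower, or 15.5%. The median log2 ratio over all measured genes was -0.07. The counts depended on single nuclei and on the minimum level. With the chosen nucleus that held the most UMIs of each gene left out, 404 genes were higher and 1887 lower, so that higher genes were 17.6% of the calls, against 37.3% with all nuclei. When a gene needed only 10 UMIs and no minimum in CPM, 1480 genes were higher and 1608 lower (47.9% higher). The 36 genes named below by their rank kept their direction and at least a 2-fold ratio in 15 alternatives.

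The rule kept Adarb2, Unc13c, Btbd11 and Sst low in the chosen nuclei only, so low levels of CGE and MGE interneuron markers in them are partly fixed by their choice. In alternatives added after seeing the data, the same limits were put on the comparison nuclei, which left 235 of them (median 3444 UMIs), or the limits were taken off, which gave 109 chosen METH nuclei (median 4007 UMIs) and 1304 others. With the limits on both sets, 5.02% of 6688 measured genes were higher and 16.6% lower, and with no limits 5.80% of 7908 were higher and 6.99% lower. Medians under both are given below for the MGE, CGE, granule cell, lateral ganglionic eminence, periglomerular, striatal and astrocyte lists. The same is done for the list of the islands of Calleja and intercalated cells and for olfactory ensheathing glia.

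The homeobox genes that the rule did not use were led by Meis2, the paralog of Meis1. Meis2 had 559 UMIs in 45 of the 48 chosen nuclei, from 0 to 42 per nucleus with a median of 8.5. Its level was 2959.7 CPM in the chosen nuclei and 161 CPM in the other GABAergic nuclei, a log2 ratio of 4.20 (4.05 to 4.34). All 41 chosen nuclei of cluster 15 had Meis2, with 1 to 42 UMIs, against 4 of the 7 METH nuclei elsewhere and 2 of the 6 saline nuclei, which had 1 UMI each. A Meis2 UMI was present in 93.8% of the chosen nuclei (82.8 to 98.7%) and 19.6% of the other GABAergic nuclei. At 2000 UMIs per nucleus, which left out 1 chosen and 79 other nuclei, these shares were 93.6% and 12.3%. As a background for free RNA, 213 METH nuclei rich in the oligodendrocyte gene Mbp were used (median 2258 UMIs). These had at least 10 Mbp UMIs and no UMI of Gad1, Gad2 or Slc17a7, a limit that can lower this background. Of them 18.3% had a Meis2 UMI, or 17.4% at 2000 UMIs. Meis2 was not particular to the chosen nuclei: at that depth 59.2% of the METH nuclei with at least 3 Slc17a7 UMIs also had it. The TALE class as a whole did not follow: of 7 measured members beyond Meis1 and Pbx3, 2 were higher, Meis2 among them, and 3 lower (Mkx, Pbx4 and Meis3, each on 1 to 3 UMIs), with a median log2 ratio of -0.82. Among the DLX genes, which GABAergic neurons of the forebrain share, Dlx5 was higher (42.4 CPM in the chosen nuclei and 15.4 CPM in the others, 1.46, interval 0.22 to 2.48), and Dlx1 (0.65) was within 2-fold.

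**Figure D2:**
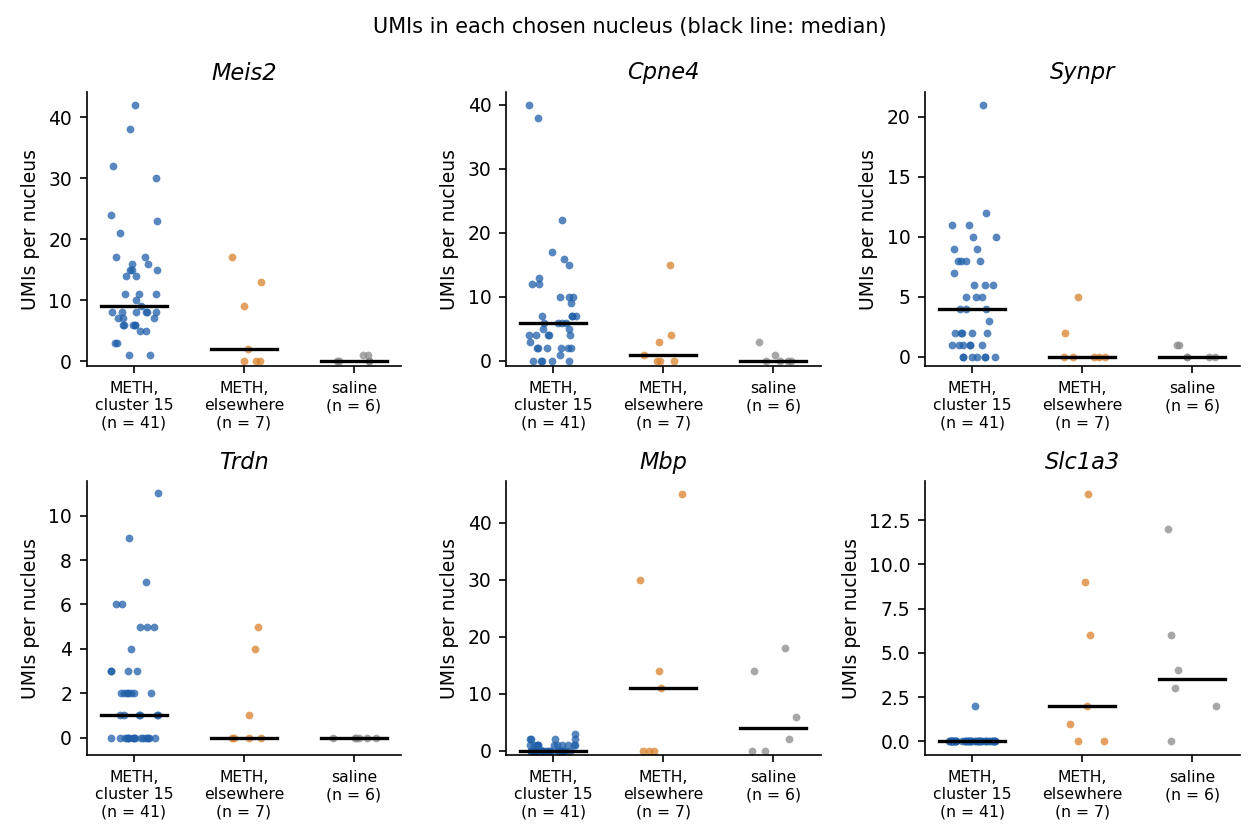
UMIs of 6 genes in each chosen nucleus, for METH nuclei in cluster 15 (blue), METH nuclei in other clusters (orange) and saline nuclei (grey); black lines are medians. Meis2, Cpne4, Synpr and Trdn were highest in METH nuclei of cluster 15, where the Meis2 median was 9, while the oligodendrocyte gene Mbp and the astrocyte gene Slc1a3 were found mostly in the chosen nuclei outside it.

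The 24 genes that ranked highest by the interval bound nearest to 0 included receptors, calcium-handling proteins, enzymes and signalling proteins. Trdn, which encodes triadin, known from calcium release in muscle, had 100 UMIs in 29 of the 48 chosen nuclei, with at most 11 per nucleus. Its level was 529 CPM in the chosen nuclei and 20.2 CPM in the others (log2 ratio 4.71, 4.34 to 5.07). Frmd7, a FERM-domain gene that is mutated in a human congenital nystagmus, was at 206 CPM in the chosen nuclei and 5.93 CPM in the others (5.12, 4.48 to 5.75). Cpa6, a secreted carboxypeptidase, was at 344 CPM in the chosen nuclei and 15.9 CPM in the others (4.43, 3.98 to 4.87). At 2000 UMIs per nucleus Trdn was present in 53.2%, Frmd7 in 31.9% and Cpa6 in 46.8% of the chosen nuclei, against 2.95%, 1.63% and 2.49% of the other GABAergic nuclei. Without thinning the shares were 60.4%, 41.7% and 54.2% of the chosen nuclei, against 5.57%, 2.42% and 4.91% of the others. In the 213 Mbp-rich nuclei Trdn was present in 2 and Frmd7 and Cpa6 in 0 (upper 95% bound 1.72%). Of the 48 chosen METH nuclei, 36 had at least 1 of the 3 genes and 12 had all 3. These genes also marked other cluster 15 nuclei, which are among the comparison nuclei: against GABAergic nuclei outside cluster 15, the log2 ratios were 6.07 for Trdn, 7.44 for Frmd7 and 5.69 for Cpa6.

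Vipr2, a receptor for the peptides VIP and PACAP, was at 206 CPM in the chosen nuclei and 7.44 CPM in the others (4.79, 4.18 to 5.39), with UMIs in 23 of 48 nuclei. Tgfa, a ligand of the EGF receptor, had a log2 ratio of 4.19 and Itga10, a collagen-binding integrin subunit, of 4.84. Mcub, a subunit that lowers the activity of the mitochondrial calcium uniporter, was at 84.7 CPM in the chosen nuclei and 2.79 CPM in the others (4.92, 3.91 to 5.90). Syt6, a synaptotagmin of vesicle and membrane traffic, was at 439 CPM in the chosen nuclei and 30.5 CPM in the others (3.85, 3.48 to 4.21). Cpne4, a copine that binds membranes in a calcium-dependent way, had 345 UMIs in 40 of the 48 chosen nuclei, with at most 40 per nucleus and a median of 4.5. Its level was 1827 CPM in the chosen nuclei and 176 CPM in the others (3.37, 3.20 to 3.54). Broad presence was also seen for Ptpro, a receptor tyrosine phosphatase, in 46 of 48 nuclei (3.27), for Pcbp3, an RNA-binding protein, in 42 (3.34), for Gng4, a G-protein gamma subunit, in 38 (3.69), and for Peli2, a ubiquitin ligase, in 37 (3.55). Eya2, a transcriptional coactivator with phosphatase activity, had a log2 ratio of 4.21, Plekha2, a phosphoinositide-binding protein, of 4.54, and Lix1 of 3.74. The other genes of this rank were Slco5a1 (3.83), Kank3 (4.07), Dnah11 (3.65) and Ptpn14 (3.75).

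Of the 24 genes, 3 rested on few nuclei. Ddc, the decarboxylase that makes dopamine from L-DOPA, had 33 UMIs in 4 of the 48 chosen nuclei, with up to 12 in 1 nucleus. Its level was 175 CPM in the chosen nuclei and 3.72 CPM in the others (5.55, 4.81 to 6.30). Ppp1r1c, an inhibitor of protein phosphatase 1, had 27 UMIs in 4 nuclei, 66.7% of them in 1 nucleus, and a log2 ratio of 5.51, or 3.98 without the highest nucleus of the gene. Kcnh8, a voltage-gated potassium channel, had 41 UMIs in 6 nuclei, 58.5% in 1 nucleus, and a log2 ratio of 3.89, or 2.65 without the highest nucleus.

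**Figure D3:**
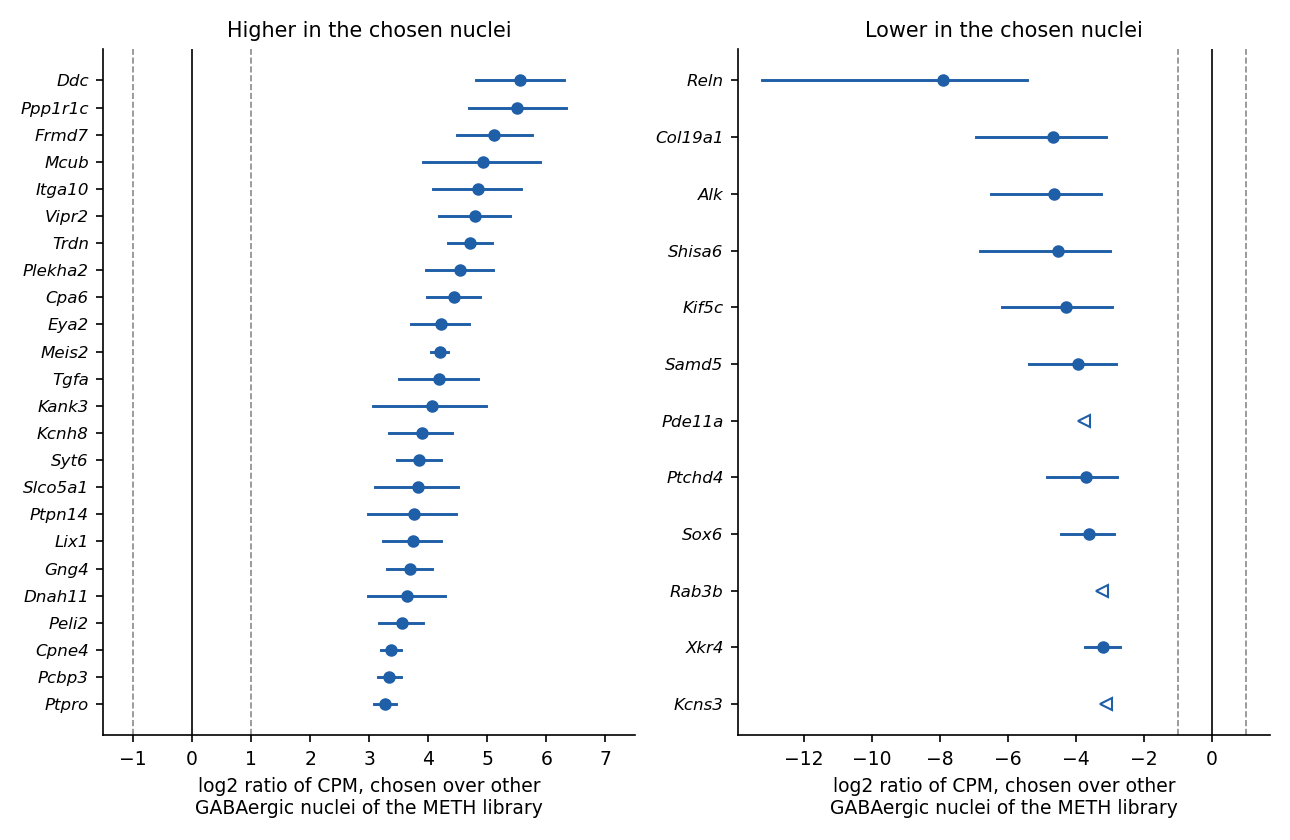
The 24 highest (left) and 12 lowest (right) genes by rank, as log2 ratios of CPM in the 48 chosen METH nuclei over 1365 other GABAergic METH nuclei (x axis, log2). Points are ratios with exact 95% intervals, open triangles are genes with no UMI in the chosen nuclei, set to 3 UMIs, and dashed lines mark 2-fold; Reln at -7.91 and Ddc at 5.55 are the extremes.

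The 12 lowest genes by the same rank included secreted, signalling and channel proteins. Reln, a secreted glycoprotein that many cortical interneurons make, had 1 UMI in the chosen nuclei, a level of 5.29 CPM against 1276 CPM in the others (log2 ratio -7.91, -13.22 to -5.43). At 2000 UMIs per nucleus Reln was present in 2.13% of the chosen nuclei, against 47.0% of the other GABAergic nuclei and 7.25% of Mbp-rich nuclei. The phosphodiesterase Pde11a (at least 13.6-fold lower), the vesicle GTPase Rab3b (at least 9.28-fold lower) and the silent potassium-channel subunit Kcns3 (at least 8.69-fold lower) had no UMI in the 48 nuclei, with 3 UMIs over the set taken as the floor. The exact intervals of these ratios reach log2 values of -3.46 for Pde11a, -2.91 for Rab3b and -2.82 for Kcns3. Genes with no UMI stand at the floor and a gene with 1 UMI, such as Reln, does not, so their ratios give no order among them. The receptor tyrosine kinase Alk was at 21.2 CPM in the chosen nuclei and 522 CPM in the others (-4.62), and the AMPA-receptor partner Shisa6 at 15.9 CPM in the chosen nuclei and 367 CPM in the others (-4.53). Kif5c, a kinesin motor subunit, was at 21.2 CPM in the chosen nuclei and 411 CPM in the others (-4.28). Col19a1 (-4.67), Samd5 (-3.93), Ptchd4 (-3.70) and Xkr4 (-3.19) completed the rank. Sox6, a transcription factor of MGE-derived interneurons, was at 79.4 CPM in the chosen nuclei and 967 CPM in the others (-3.61, -4.44 to -2.88). Of its 15 UMIs, 2 were in the 41 nuclei of cluster 15, and the log2 ratio with these nuclei alone was -6.28. Alk had 1 of its 4 UMIs in these 41 nuclei (-6.39 with them alone) and Samd5 3 of its 6 UMIs (-4.70). The exclusion limits were set on the chosen nuclei only, so low levels here can also be partly fixed by the choice. With no such limits all 12 log2 ratios were weaker, from -3.63 for Reln to -1.27 for Pde11a. Among them, Kif5c was at -1.53, Alk at -1.62 and Xkr4 at -1.63. With the limits on both sets Pde11a was at -2.73, Reln at -6.42 and Kif5c at -4.05.

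Marker lists of the cell types that could hold such nuclei were then compared. Of the MGE interneuron list 8 members were measured, of which 0 were higher and 5 lower, with a median log2 ratio of -1.37. Lhx6, the MGE regulator, had no UMI in the chosen nuclei, and Satb1 was at 101 CPM in the chosen nuclei and 556 CPM in the others (-2.47). The CGE interneuron list had 6 measured members, 0 higher and 6 lower, with a median of -3.15. Prox1 had 1 UMI in the chosen nuclei (-3.47, -8.78 to -0.99), Vip had 3 (-3.64, -5.92 to -2.09) and Nr2f2 had none. After thinning, the CGE median was -0.97. With the exclusion limits on the comparison nuclei too, 5 MGE members were measured, 0 higher and 3 lower (median -1.11), and 2 CGE members, both lower (-3.72). With no exclusion limits the medians were -1.65 for the MGE list (5 of 8 lower) and -1.499 for the CGE list (4 of 6 lower), and no member of either list was higher. In sums over narrower sets of METH GABAergic nuclei, Meis2 was at 33.6 CPM in 197 nuclei with Lhx6 and Sox6 and at 235 CPM in 430 nuclei with at least 3 Adarb2 UMIs and no Lhx6.

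Of the olfactory bulb granule cell list 5 of 10 members were measured, 4 of them higher and 0 lower, with a median of 1.94. Beside Meis2, these were Etv1, an ETS transcription factor (249 CPM in the chosen nuclei and 56.3 CPM in the others, 2.14), Pcp4, a calmodulin-binding peptide (52.9 CPM in the chosen nuclei and 13.8 CPM in the others, 1.94), and Synpr, the synaptic vesicle protein synaptoporin (1075 CPM in the chosen nuclei and 439.6 CPM in the others, 1.29, 1.08 to 1.49). Camk4 was within 2-fold (0.21), and Sp8, Calb2, Tpbg, Dlx2 and Prokr2 were below the measuring limit, with 0 to 5 UMIs each in the chosen nuclei. The 47 Etv1 UMIs lay in 16 of the 48 chosen nuclei, with 11 in 1 nucleus that also had Ddc and 9 in another. With the exclusion limits on both sets, 3 of 4 measured members of the granule cell list were higher (median 1.44), and with no limits 3 of 5 (2.18). The list shares Meis2 and Etv1 with the list of lateral ganglionic eminence factors, of which 7 were measured, 3 higher and 0 lower, with a median of 0.12. The third of these, Foxp2, had 42 of its 49 UMIs in 1 nucleus, so its log2 ratio of 2.39 describes that nucleus. With the exclusion limits on both sets the median of the lateral ganglionic eminence factors was -0.003 (3 of 8 higher, 2 lower). With no limits it was 1.23 (4 of 8 higher, 0 lower). Of the 9 listed mitral and tufted cell markers outside the rule, 7 had no UMI in the chosen nuclei, among them Tbx21 and Eomes, the T-box factors of these cells, and Slc17a6. The remaining markers were Cdhr1 at 2 UMIs and Reln at 1 UMI.

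The striatal projection neuron list had 9 of 20 members measured, 1 higher and 4 lower, with a median of -0.29. Its defining genes were at or near 0: Drd1, Drd2, Adora2a and Pdyn had no UMI in the chosen nuclei, and Ppp1r1b and Penk had 1 each. Pde10a, the striatal phosphodiesterase, was at 164 CPM in the chosen nuclei and 339 CPM in the others (-1.05), and Gng7 at 21.2 CPM in the chosen nuclei and 98.4 CPM in the others (-2.22), with 1 of its 4 UMIs in the 41 nuclei of cluster 15. Rgs9, a regulator of G-protein signalling, was the higher member, with 7 UMIs (2.09, 0.72 to 3.20). A striatal rule that asked for Ppp1r1b, Rgs9 and Drd1, Drd2 or Adora2a together was put to the GABAergic nuclei that were not chosen. It was passed by 0 of 1365 in the METH library and 0 of 1136 in the saline library. The chosen nuclei and nuclei that were not GABAergic were not put to it. With the exclusion limits on both sets the striatal median was -0.82 (0 of 9 higher, 3 lower), and with no limits -0.23 (2 of 10 higher, 1 lower). The list of the islands of Calleja and the intercalated cells of the amygdala had 2 of 6 members measured, both higher with a median of 1.88: Foxp2, which rests on 1 nucleus, and Oprm1, the mu-opioid receptor (1.36). Drd1 had no UMI in the chosen nuclei, and Drd3, Tshz1 and Penk had 1 each. The periglomerular list had 3 of 10 members measured, Ddc (5.55) and Th (2.77) higher and Calb1 lower on 1 UMI (-2.67), with a median of 2.77. The Ddc and Th UMIs lay in few nuclei, as given below. With the exclusion limits on both sets the periglomerular median was 0.36, and with no limits 0.55. Each was over 2 measured members, 1 higher and 1 lower. The septal list had 2 of 6 members measured, Dgkg lower (-1.01) and Trpc4 within 2-fold (-0.85), with a median of -0.93.

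Of the immature neuron list 4 members were measured. Dcx, the microtubule protein doublecortin, was at 296 CPM in the chosen nuclei and 104 CPM in the others (1.51, 1.10 to 1.90), Tubb3 was lower (-1.04, -2.67 to 0.19), and Stmn1 and Nrep were within 2-fold. The proliferation genes Mki67 and Top2a, and Sox11, had no UMI in the chosen nuclei.

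**Figure D4:**
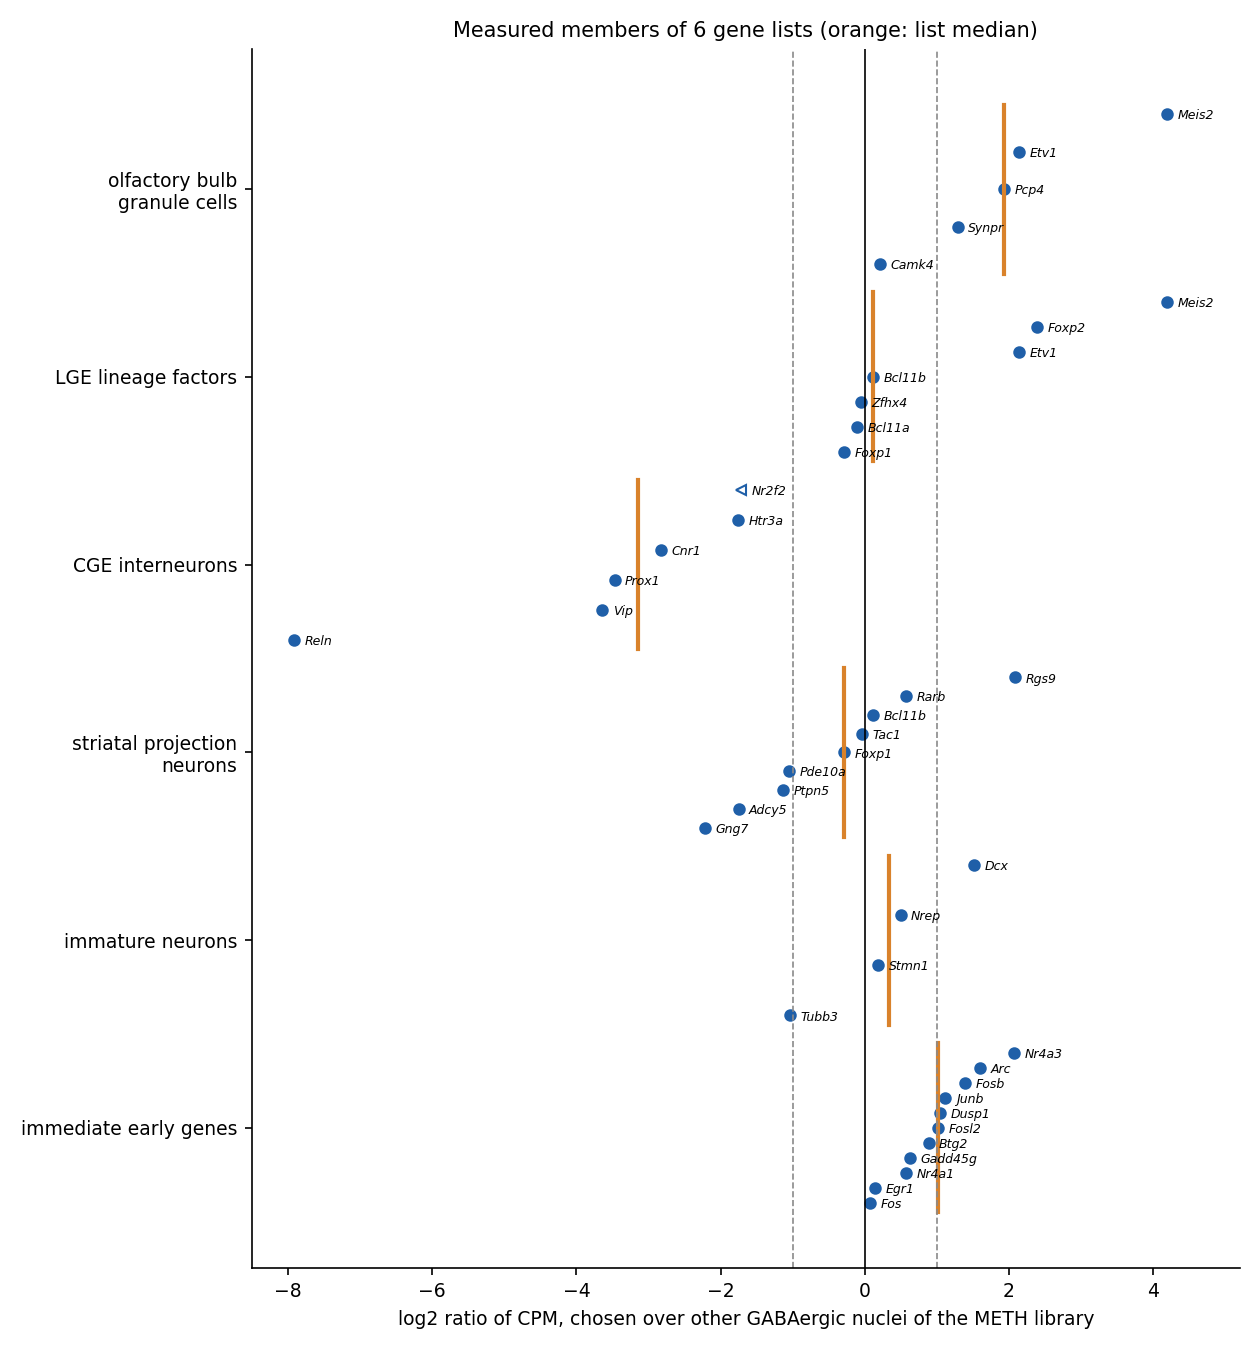
Measured members of 6 gene lists, as log2 ratios of CPM in chosen over other GABAergic METH nuclei (x axis, log2). Each point is a gene, open triangles are genes with no UMI in the chosen nuclei set to 3 UMIs, orange bars are list medians and dashed lines mark 2-fold; the granule cell list has its median at 1.94 and the CGE list at -3.15.

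Glial genes were present in the chosen nuclei and followed the cluster. All 6 measured oligodendrocyte markers were higher in the 48 METH nuclei, with a median log2 ratio of 2.20 and a summed level of 1297 CPM, against 328 CPM in the other GABAergic nuclei. In the 41 nuclei of cluster 15 the sum was 256 CPM and the median was -0.19. Mbp had 22 UMIs in the 41 nuclei of cluster 15 and 100 UMIs in the 7 METH nuclei outside it. Mobp had 0 UMIs in the 41 nuclei and 20 in the 7. Slc1a3, an astrocyte glutamate transporter, had 2 UMIs in the 41 nuclei and 32 in the 7, and 27 in the 6 saline nuclei. The summed level of the 7 astrocyte markers was 296 CPM in the 48 METH nuclei and 49.9 CPM in the 41 of cluster 15, against 247 CPM in the other GABAergic nuclei. The astrocyte median over 4 measured markers was -0.07 with the 48 nuclei. It was -1.53 with the exclusion limits on both sets (4 of 4 lower) and 0.26 with no limits (0 higher and 0 lower). Olfactory ensheathing glia markers had a median of 1.78 over 4 measured genes, among them Sox10, which oligodendrocytes also express. Their median was -0.037 with the 41 nuclei, and -0.20 with the 48 nuclei and the exclusion limits on both sets. With no limits it was 1.99 (3 of 3 higher). No microglial, endothelial or mural marker was measured: the microglial sum was 26.5 CPM in the chosen nuclei and 30.1 CPM in the others, and the endothelial sum 5.29 CPM in the chosen nuclei and 20.4 CPM in the others.

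The counts for the gene groups that follow stand beside the 9.23% of all measured genes that were higher and the 15.5% that were lower; the groups are small, and nothing particular to a group is read from its count. Genes of inhibitory transmission were mixed. Gad1 and Gad2, which the rule used, were at 1038 CPM and 604 CPM in the chosen nuclei and at 522 CPM and 531 CPM in the other GABAergic nuclei. Slc32a1, the vesicular GABA transporter, was at 79.4 CPM in the chosen nuclei and 35.6 CPM in the others (1.16, 0.30 to 1.90), and Abat, the GABA-degrading transaminase, was lower (-1.13). Of 11 measured GABA-A receptor subunits 3 were higher and 2 lower. Gabra2 was at 371 CPM in the chosen nuclei and 91.8 CPM in the others (2.01, 1.64 to 2.37), and Gabra5 at 84.7 CPM in the chosen nuclei and 24.7 CPM in the others (1.78). Gabrb2 was at 159 CPM in the chosen nuclei and 630.0 CPM in the others (-1.99). The chloride importer Slc12a2 was higher (2.28, 1.87 to 2.66) and the GABA-B receptor subunit Gabbr2 lower (-2.62, -3.33 to -1.99).

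Of 25 measured potassium-channel genes 3 were higher and 9 lower, with a median of -0.50. The fast-spiking channel genes Kcnc1 (-2.09) and Kcnc2 (-1.33) were lower, as was the beta subunit Kcnab1 (-2.98), while Kcnh5 (1.98) and Kcnh7 (1.33), of the ether-a-go-go family, were higher. Of 21 sodium, calcium and HCN channel genes 4 were higher and 7 lower. Cacna2d1, an auxiliary calcium-channel subunit and gabapentin target, was at 1879.6 CPM in the chosen nuclei and 285 CPM in the others (2.72, 2.56 to 2.88), whereas its paralog Cacna2d3 was at 180.0 CPM in the chosen nuclei and 1247 CPM in the others (-2.79, -3.32 to -2.31). Scn1a, the sodium channel of many interneurons, was lower (-1.33). Of 6 measured metabotropic glutamate receptor genes 2 were higher, Grm2 (3.55, 2.69 to 4.34) and Grm8 (1.29), and Grm7 was lower (-1.29). The kainate receptor gene Grik1 was lower (-3.01, -3.88 to -2.26). Of 4 measured neuropeptide and opioid receptor genes 2 were higher: Vipr2, given above, and Oprm1, the mu-opioid receptor, at 196 CPM in the chosen nuclei and 76.2 CPM in the others (1.36, 0.84 to 1.84).

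Of 27 measured guidance genes 3 were higher and 11 lower, with a median of -0.60; the lowest were Efna5 (-3.26) and Unc5d (-3.01, with its 4 UMIs in 1 nucleus), and Ntng1 (1.91) and Sema3d (2.16) were higher. Of 17 cadherins 3 were higher, with Cdh10 at 1557 CPM in the chosen nuclei and 516 CPM in the others (1.59), and 5 were lower, with Cdh13 at 148 CPM in the chosen nuclei and 1372 CPM in the others (-3.21). Among vesicle genes Syt10 (3.46) and Sv2c (1.33) were higher and the active-zone gene Rims1 was lower (-3.19, -3.75 to -2.69). Of 11 measured immediate early genes, which neurons induce with activity, 6 were higher and 0 lower, with a median of 1.02. The median was 0.40 without the chosen nucleus that held the most UMIs of each gene, and 0.13 with the exclusion limits on both sets (1 of 8 higher). These levels rested on few molecules: the highest, Nr4a3, had 13 UMIs in 11 nuclei (2.07, 1.12 to 2.89), Junb had 10 UMIs (1.12, 0.04 to 2.02), and the intervals of Fosb, Fosl2, Arc and Dusp1 included 0.

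Cluster 15 held further nuclei that the rule left out. It had 204 METH nuclei and 5 saline nuclei. Of the 5 saline nuclei 0 were chosen, 4 were other GABAergic nuclei and 1 had neither Slc17a7 nor Gad1 or Gad2. The 4 GABAergic saline nuclei held 14358 UMIs together. Meis2 was at 2995 CPM in them, with UMIs in all 4, and Pbx3 at 1672 CPM, with UMIs in 2. Frmd7, Trdn and Cpa6 had 0 UMIs there. Of the METH nuclei 41 were chosen, 66 were other GABAergic nuclei, 59 had Slc17a7 without Gad1 or Gad2, 15 had both and 23 had neither. Since the cluster was formed on the 2000 most variable genes of all nuclei, levels in its parts are a description. In the METH library Meis2 was at 3228 CPM in the chosen nuclei of cluster 15 and 3393 CPM in the other GABAergic nuclei of the cluster. Pbx3 was at 1819.8 CPM in the chosen nuclei and 2157 CPM in the other GABAergic nuclei, Trdn at 561 CPM in the chosen and 499.9 CPM in the other ones, and Frmd7 at 224 CPM in the chosen and 189.8 CPM in the other ones. Syt6 was at 442 CPM in the chosen nuclei of the cluster and 181 CPM in its other GABAergic nuclei. The Slc17a7 nuclei differed: they had 0 UMIs of Frmd7 and 15.3 CPM of Trdn. They held 65 of the 113 Cdhr1 UMIs and 31 of the 37 Tbx21 UMIs of the METH nuclei in the cluster. They also held 522344 of the 1113965 UMIs of all genes in those METH nuclei. The Cdhr1 level was 124 CPM in the Slc17a7 nuclei, 175 CPM in the nuclei with both and 245 CPM in those with neither. The chosen nuclei held 2 UMIs of Cdhr1 and 0 of Tbx21. Ebf3, an early B-cell factor among the leading genes of the cluster, had 0 UMIs in its GABAergic nuclei. Over all nuclei, Tbx21 had 96 UMIs in the METH library and 20 in the saline library, Frmd7 had 137 in the METH library and 17 in the saline library, Cpa6 453 in METH and 150 in saline, and Trdn 734 in METH and 287 in saline. Of the striatal genes, Drd1 had 22 UMIs in the METH library and 24 in the saline library, Adora2a 60 in METH and 36 in saline, and Ppp1r1b 492 in METH and 486 in saline. The labels do not describe the borders of the tissue taken in each group, and the part of dissection in these differences was not tested.

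**Figure D5:**
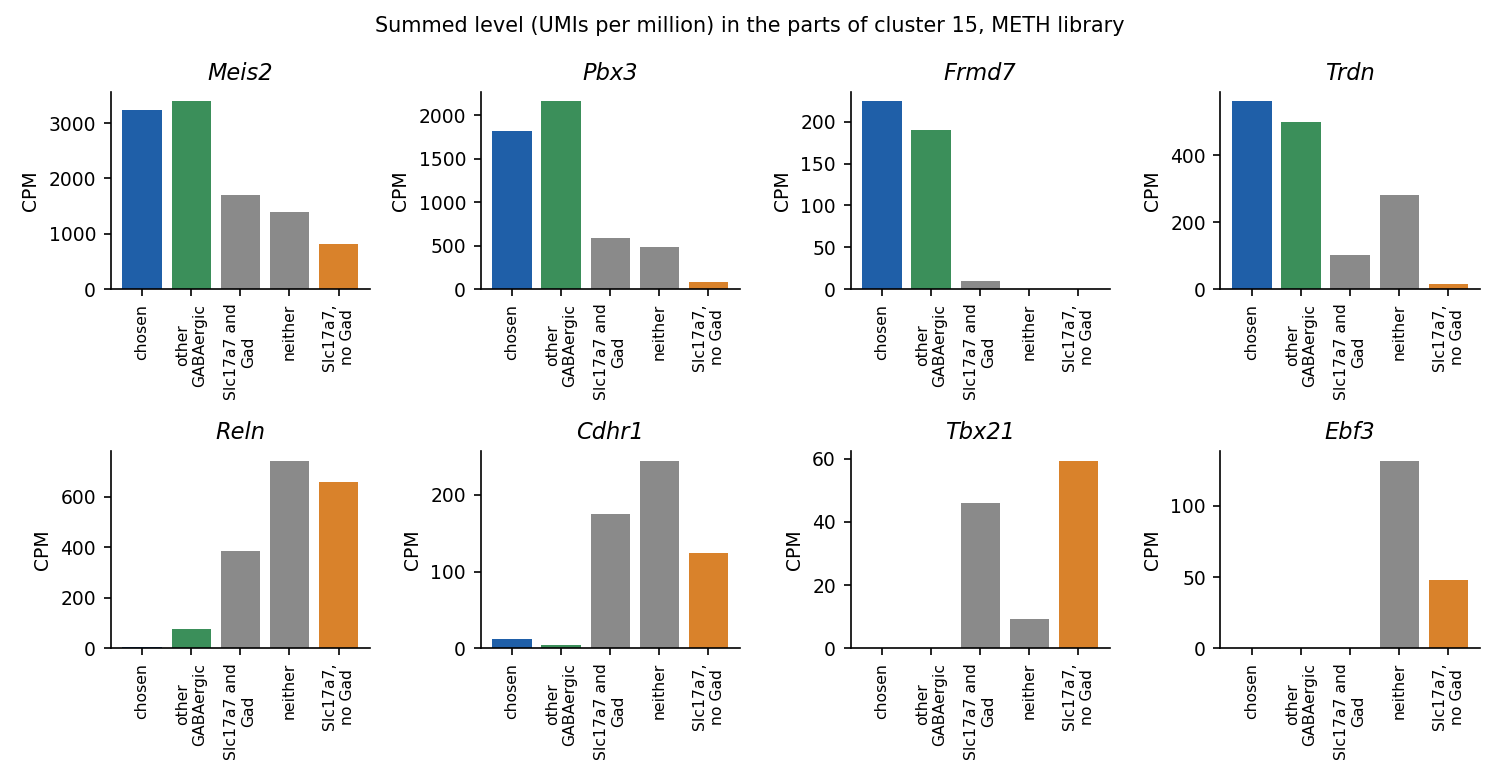
Level of 8 genes (y axis, CPM of summed UMIs) in the METH nuclei of cluster 15, split into the 41 chosen nuclei (blue), 66 other GABAergic nuclei (green), 15 nuclei with both Slc17a7 and Gad1 or Gad2 and 23 with neither (grey), and 59 nuclei with Slc17a7 alone (orange). Meis2, Pbx3, Frmd7 and Trdn were highest in the GABAergic nuclei, and Reln, Cdhr1, Tbx21 and Ebf3 in the others.

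Clustering the 54 chosen nuclei alone gave a set of 27 METH nuclei, all in cluster 15, and a set of 27 that held the other 21 METH nuclei and the 6 saline nuclei. The genes that led the first set were Ddc, Ppp1r1c, Cpne6, Vav3, Gabrg3, Synpr, Angpt1 and Sez6. Those of the other set were the glial genes Slc1a3, Mog, Aspa and Mobp, and Prex2, Kcnh8, Fnbp1 and Sox6. The other set held 14 nuclei of cluster 15, and all 41 chosen nuclei of that cluster held 2 UMIs of Slc1a3, 1 of Mog and 0 of Mobp. Because the leading genes formed the sets, their values are a description. With the comparison kept to cluster 15, 27 nuclei of the first set faced 14 of the other, at median depths of 3394 and 3151 UMIs. Synpr was at 1637 CPM in the 27 nuclei and 459 CPM in the 14 (log2 ratio 1.83). Gabrg3, a GABA-A receptor subunit, was at 1859 CPM in the 27 nuclei and 371 CPM in the 14 (2.33), and Vav3, an exchange factor for small GTPases, at 713 CPM in the 27 nuclei and 88.3 CPM in the 14 (3.01). Dcx was at 424 CPM in the 27 nuclei and 177 CPM in the 14 (1.26). Syt6 ran the other way, at 289 CPM in the 27 nuclei and 724 CPM in the 14 (-1.33), and Kcnh8 had 0 UMIs in the 27 nuclei and 35 in the 14, of which 24 were in 1 nucleus. Meis2 (0.22), Pbx3 (-0.11), Meis1 (-0.19) and Frmd7 (-0.05) had like levels in the 27 and the 14 nuclei.

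Dopamine-synthesis genes were found in few of the 54 nuclei. Th, tyrosine hydroxylase, the enzyme before Ddc in dopamine synthesis, had 6 UMIs in 4 nuclei, and 3 of these 4 were among the 4 nuclei with Ddc, which all lay in the set of 27. The 4 Ddc nuclei had a median of 3804 UMIs, and 1 of them had a UMI of Trdn, Frmd7 or Cpa6. The calcium-binding proteins Calb1 and Calb2, which mark other periglomerular cells of the olfactory bulb, had 1 UMI each in the 48 METH nuclei.

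The 6 saline nuclei lacked several leading genes of this profile but had Etv1. Their 26718 UMIs, with a median of 3980 per nucleus, held 0 UMIs of Trdn, Frmd7, Cpa6, Vipr2 and Ddc, 2 UMIs of Meis2 and 2 of Synpr. They held 35 UMIs of Sox6, 40 of Mbp and 27 of Slc1a3. Etv1 was at 262 CPM in the 6 saline nuclei, with 7 UMIs in 5 of them. It was at 249 CPM in the chosen METH nuclei, with UMIs in 16 of 48. The summed level of the lateral ganglionic eminence list was 1572 CPM in the 6 saline nuclei and 1047 CPM in the other saline GABAergic nuclei. In the chosen METH nuclei this sum was 4262 CPM. In comparison with the other GABAergic nuclei of the saline library, used in place of those of the METH library, the chosen METH nuclei had log2 ratios of 5.24 for Meis2 and 7.05 for Trdn. No METH against saline comparison of gene levels within the chosen nuclei was made, because the saline nuclei are 6 and belong to other clusters.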

How the data were processed

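Nuclear RNA of rat orbitofrontal cortex was measured with the Chromium Single Cell 3' v3.1 kit, per the labels' protocols. The submitters' processing notes name Cell Ranger 7.0.0, and the values the authors deposited are raw UMI counts for each gene in each barcode. These notes name the human build hg38, while the deposited gene tables hold rat Ensembl identifiers; they name no rat build. Symbols were read from the deposited tables; 23 of 486 listed symbols were not matched there and were not used.

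Nuclei with at least 500 genes were kept, with no limit on mitochondrial UMIs. Doublets were called with Scrublet (scanpy 1.11.5, expected rate 0.06) and kept in the main values. All nuclei were clustered without integration (counts scaled to 10000 and log-transformed, 2000 variable genes, 30 components, 15 neighbours, Leiden at resolution 1, igraph 0.11.9), and the chosen nuclei with 1000 genes, 15 components, 10 neighbours and resolution 0.5. UMIs were summed over nuclei, and log2 ratios have exact conditional binomial intervals, shares exact Clopper-Pearson intervals; the 9 genes of the rule were left out of all counts. A sum of 0 was set to 3 UMIs. The calculation was tested on simulated data. Genes were named by rank on the interval bound nearest to 0 (24 highest, 12 lowest, without mitochondrial, ribosomal, haemoglobin and clone-named genes), with the members of the listed markers and up to 4 genes with the largest ratio in other lists; genes outside this rule were named after their values were seen. The nuclei, lists and tests were chosen with earlier results of these data known. Some genes are not reported here. Alternatives included other gene minimums, doublet removal, edgeR 4.0.16 TMM scaling and thinning to 2000 UMIs.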

Additional observations from a re-analysis of the deposited data

How the results depend on the processing

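The ratio of shares, METH over saline, kept its direction in 9 alternatives (log2 2.69 to 4.23). As the METH excess was known when the nuclei were picked, this adds no support for it. The values with at least 2 UMIs each of Meis1 and Pbx3 (3.70) and within cluster 15 (4.11) have no upper limit. There the saline library had 0 chosen nuclei, set to 3, so these log2 ratios are at least as high at that floor. The 36 ranked genes kept direction and at least a 2-fold ratio in 15 alternatives. The count of higher genes was 404 without the chosen nucleus with the most UMIs of each gene, 1480 when a gene needed only 10 UMIs and no minimum in CPM, and 381 with at least 100 UMIs and 50 CPM, against 751 in the main comparison; the count of lower genes was 664 under the last of these, against 1262. The CGE interneuron median was -0.97 after thinning to 2000 UMIs, against -3.15. Thinning left 94000 UMIs in the chosen nuclei, so the floor of 3 UMIs for a sum of 0 was a higher CPM there. Its part in the change was not tested. With the chosen nuclei of cluster 15 only, an alternative added after seeing the data, the median of the oligodendrocyte list was -0.19, against 2.20, and that of olfactory ensheathing glia -0.037, against 1.78. With the rule's exclusion limits put on the comparison nuclei too, also added after seeing the data, 336 genes were higher and the olfactory ensheathing glia median was -0.20. With no exclusion limits, 459 were higher and 553 lower, the CGE median was -1.499 and the olfactory ensheathing glia median was 1.99. TMM scaling shifted all log2 ratios by 0.028. Other gene minimums, doublet removal, the 5% mitochondrial limit and the use of saline or cluster-restricted comparison nuclei left both counts of calls within 1.5 times. With 188871 UMIs in the chosen nuclei, a gene with 0 to 3 UMIs there has a wide interval or only a bound, and 48 nuclei of 1 library describe that library alone. No paired analysis was possible because each group has 1 library, so the groups share fewer than 2 replicate numbers and no library could be left out.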
